A study of Mus musculus with 20 samples.

Results

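The material described here is a single ribosome pull-down from mice whose gonadotropin-releasing hormone (GnRH) neurons carry a green fluorescent protein (GFP) tag on the ribosomal protein L10a, set against pull-downs from mice without the tag. It was chosen by its genotype and fraction labels: 2 of the 20 libraries of the series, the immunoprecipitate (IP) of an adult tagged pool and the supernatant left after that pull-down, compared with the 10 libraries of 5 untagged pools. Every pool held preoptic area punches of 3 to 4 female mice, taken at day 21 (young) or at days 70 to 150 (adult, all in diestrus). The tagged pool came from adults of the cross GnRH CRE x Floxed L10a-GFP, in which Cre is driven by the GnRH gene. Both untagged adult pools carried GnRH CRE only. Untagged young pools 1 and 2 were wild type and untagged young pool 3 carried Floxed L10a-GFP only. No untagged pool carried both alleles, and 3 of the 5 were younger than the tagged pool, so the tag, the combination of alleles and, against the young pools, age cannot be told apart.

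GnRH neurons are few and scattered through the preoptic area. They release the decapeptide that drives the pituitary to secrete the gonadotropins, and kisspeptin, acting through the receptor encoded by Kiss1r, is the best known stimulus of their activity. Translating ribosome affinity purification uses antibody against GFP to recover tagged ribosomes with the mRNA they hold, so transcripts of the tagged cells should be richer in the IP than in the supernatant, whereas an IP from untagged tissue holds only what sticks to the beads or antibody.

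The hormone's own transcript carried the main result, and its coding sequence is shown for that reason. Gnrh1 lies on the plus strand of chr14:67745181-67749439 in GRCm38, the assembly also called mm10, where GENCODE lists 3 coding transcripts, and its exons overlapped no other annotated gene. The 273 bases of the open reading frame below encode a 90-residue prohormone; the capitals mark the 30 bases, 64 to 93, that encode residues 22 to 31, the mature decapeptide.
Gnrh1: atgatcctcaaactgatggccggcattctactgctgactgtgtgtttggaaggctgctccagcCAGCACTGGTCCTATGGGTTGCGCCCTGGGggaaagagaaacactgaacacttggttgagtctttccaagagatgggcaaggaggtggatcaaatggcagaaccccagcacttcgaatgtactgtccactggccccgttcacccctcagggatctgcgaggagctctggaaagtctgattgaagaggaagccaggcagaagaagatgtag

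Library totals ran from 27.75 to 50.52 M counts, and 3 counts, the upper limit that a count of 0 allows, corresponded to between 0.0567 and 0.115 counts per M (CPM, scaled by the trimmed mean of M values, TMM). Of the 19269 genes in the table, 14267 had a mean of at least 1 CPM over the 12 libraries and are called measured. That mean includes the tagged IP, so a gene low in the other libraries can be measured through the tagged IP alone. For each gene the log2 ratio of IP to supernatant of the same pool was computed, and the tagged ratio was placed above, within or below the range of the 5 untagged ratios; the margin is its distance outside that range on the log2 scale. With 1 tagged pair against 5, no exact permutation test could give a p below 0.1667, so the comparison is a description without a test of groups. Folds of IP over supernatant are ratios of CPM without the prior count that the log2 ratios hold, so both scales differ slightly at low counts. Intervals given with these folds are 95% counting intervals of the tagged pair alone and hold no variation between animals.

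Among abundant transcripts, Gnrh1 was the one farthest above the untagged range. Its level in the tagged IP was 1450 CPM, from 70369 counts. The untagged IP libraries held 32.4 and 16.0 CPM in the adult pools 1 and 2, and 10.1, 11.7 and 7.70 CPM in the young pools 1 to 3. Every untagged library therefore lay far under the tagged one, and the tagged level was 44.7-fold over the highest of them. In the supernatants the order vanished: the tagged pool held 28.1 CPM, the adult untagged pools 28.8 and 26.0 CPM, and the young untagged pools 28.5, 29.6 and 18.1 CPM. The supernatant level of the tagged pool thus lay among those of the untagged pools, with no deficit of Gnrh1 visible after the pull-down.

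As a ratio of IP to supernatant, tagged Gnrh1 stood at 5.69 on the log2 scale, a 51.6-fold enrichment with a counting interval of 48.1 to 55.6. The untagged ratios were 0.17 and -0.70 in the adult pools and -1.49, -1.34 and -1.23 in the young pools. The margin over the highest of them was 5.52. By margin Gnrh1 ranked 2 among all measured genes, 1 among those with a mean of at least 5 CPM, 12 with no filter and 21 against the untagged adult pairs alone. Untagged adult pool 1 supplied that highest ratio, and without it the margin was 6.39. Among the untagged IP libraries, both adult pools held more Gnrh1 than any young pool, whereas the untagged supernatants of the 2 ages overlapped.

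Kiss1r, the kisspeptin receptor and the other marker named for these cells, gave a much smaller and less certain separation. The tagged IP held 18.8 CPM, against 5.195 and 7.59 CPM in the untagged adult IP libraries and 9.70, 2.73 and 16.7 CPM in the young ones. The supernatants held 6.70 CPM in the tagged pool, 9.10 and 4.42 CPM in the untagged adult pools, and 6.39, 7.30 and 6.04 CPM in the young pools. The tagged IP was thus the highest of the 6, but untagged young pool 3 nearly equalled it. The tagged ratio of 1.48, a 2.80-fold enrichment with a counting interval of 2.39 to 3.31, exceeded the highest untagged ratio, 1.46, by 0.02. Scaling by total counts, centring each pair on its median or exchanging the supernatants of the tagged pool and untagged adult pool 1 each placed it within the untagged range. Without untagged young pool 3 the margin was 0.71. An exon of Kiss1r overlaps R3hdm4 on the opposite strand, and the labels do not state whether the counting used strand.

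Of the markers that name the labelled cells, Gnrh1 thus stood far outside the untagged range and Kiss1r at its edge. Of the 10 genes in a list of GnRH neuron markers, all measured, 4 were above the untagged range, 1 was below it and 5 were within it. The 4 above were Gnrh1 and Kiss1r, already given, with Gal and Ecel1. The shares above and below, 40% and 10%, stand beside 19.8% and 15.5% of all measured genes, but the 40% counts Gnrh1 and Kiss1r again. With total counts 2 of the list were above, and after centring 3. Galanin, a neuropeptide that GnRH neurons of female rodents co-express, was above by 0.26: Gal held 82.3 CPM in the tagged IP and between 22.7 and 50.2 CPM in the untagged IP libraries. Ecel1, a neuronal endopeptidase gene, was above by 0.06, with 237 CPM in the tagged IP against 79.9 to 178 CPM, and fell within the range under scaling by total counts. Nhlh2, a transcription factor of the GnRH lineage, and Isl1, a homeobox factor, were within the range, with tagged IP levels of 5.75 and 61.3 CPM, as were the receptors Galr1, Npffr1 and Esr2 at 1.46, 5.40 and 0.803 CPM. Prokr2, the prokineticin receptor, went the other way: the tagged IP held 2 counts, 0.0412 CPM, and the untagged IP libraries between 1.13 and 7.43 CPM. Rpl10a, the endogenous gene of the tagged ribosomal protein, held 90.9 CPM in the tagged IP, inside the untagged 74.7 to 121 CPM. Its tagged ratio of -0.37 was above the untagged -0.85 to -0.50 by 0.13, and within the range with total counts or with no replicate block. The labels do not state whether reads of the tagged transgene were counted there.

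**Figure D1:**
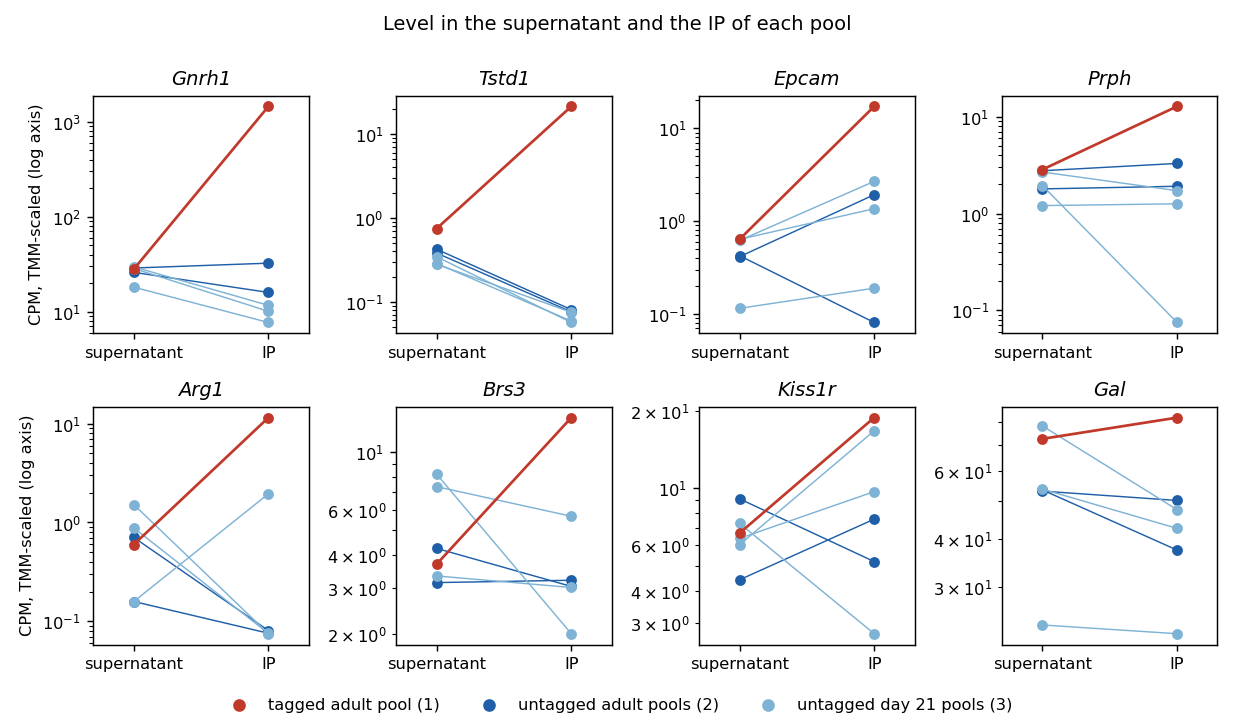
Level of 8 genes in the supernatant and the IP of each pool, in TMM-scaled CPM on log axes that differ between panels; each line joins the fractions of 1 pool, and values under 3 counts are drawn at the level of 3 counts. The tagged Gnrh1 line climbs from 28.1 to 1450 CPM while the untagged lines stay between 7.70 and 32.4 CPM in the IP, and for Kiss1r an untagged young pool reaches 16.7 CPM beside the tagged 18.8 CPM.

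Across all measured genes the tagged ratio lay above the 5 untagged ratios for 2818, 19.8% of 14267, and below them for 2216, 15.5%. The remaining 9233 genes were within the range. If the tagged pair were like any untagged one, a share of 0.1667 of genes would on average be above and 0.1667 below. Counts of this size over all measured genes therefore do not by themselves set the tagged pair apart. Scaling moved this split: 56.0% of the genes outside the range were above it with TMM scaling, 42.4% with total counts, 50.7% with DESeq2 size factors and 46.0% after each ratio was centred on its median. The median tagged ratio less the untagged mean was 0.08 with TMM scaling and -0.03 with total counts, so small differences of a list are read against that shift. A margin of at least 1, which is a 2-fold distance from the nearest untagged pair, was reached by 109 genes above, 0.764%, and 269 below, 1.89%. At this threshold Mtrf1l lay just inside with a margin of 1.01 and Btbd8 just outside with 0.99.

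Most of these large distances belonged to transcripts of low level. Among the 8174 genes with a mean of at least 20 CPM, 23.5% were above and 15.8% below the range, but only 2 were above by a margin of 1, 0.0245%, and 21 were below by it, 0.257%. At a mean of at least 50 CPM, 28.8% were above and 15.3% below, beside the average share of 0.1667 on each side. Whether an untagged pair treated in the same way would reach such a share above was not tested. At that level only Gnrh1 was above by a margin of 1, 0.0212%, and only Pgrmc2, a membrane heme-binding protein, was below by it, 0.0212%. Zfp579, a zinc-finger gene, was the other gene above with at least 20 CPM: its tagged IP level was 51.7 CPM against 18.2 to 30.1 CPM in the untagged IP libraries, a margin of 1.15. Pgrmc2 held 26.0 CPM in the tagged IP against 39.2 to 80.4 CPM, with 98.5 CPM in the tagged supernatant, inside the untagged 65.9 to 105 CPM. Zfp579 and Pgrmc2 were picked out after their values were seen.

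**Figure D2:**
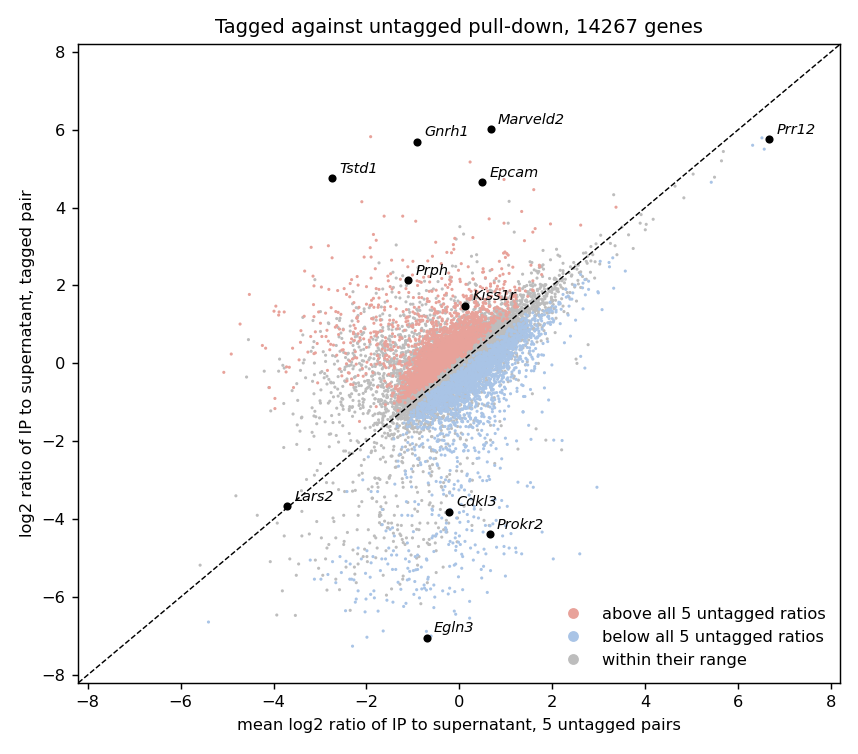
Log2 ratio of IP to supernatant in the tagged pair (vertical) against the mean of the 5 untagged pairs (horizontal) for the 14267 measured genes, 1 point per gene, coloured by whether the tagged ratio is above, below or within the untagged range; the dashed line marks equal ratios. Gnrh1 stands at 5.69 on the vertical axis. Prr12, with the highest mean untagged ratio of the 8 untagged pull-down transcripts, lies under the line at the upper right, at a tagged ratio of 5.76 and an untagged mean of 6.66.

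The tagged pull-down otherwise resembled an untagged one. Across the 14267 measured genes, tagged and untagged ratios correlated at 0.31 to 0.33, and untagged ratios among themselves at 0.32 to 0.36. With a mean of at least 50 CPM, 4718 genes, the values were 0.79 to 0.85 and 0.83 to 0.89. These are Pearson correlations across genes, given without a p since genes are not replicates, and they rise with abundance; the 6 pairs share no library.

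Transcripts with high ratios in the untagged pull-downs were also recovered from tagged tissue. The 8 genes examined here encode large chromatin and transcription proteins and were picked for high ratios in these untagged libraries, so neither those ratios nor a lower ratio in the tagged pair is a result. In the tagged pair, 5 of the 8 were below the untagged range, 3 were within it and 0 were above. The median tagged ratio was 5.47, inside the untagged pair medians of 5.36 to 6.56. Prr12, a nuclear proline-rich protein, held 615 CPM in the tagged IP and 1065 to 1574 CPM in the untagged IP libraries, and its tagged ratio of 5.76 was under the untagged 5.91 to 7.11. Bahcc1, Bcor, Tnrc18 and Yeats2 were below by between 0.10 and 0.37. Mn1, a transcriptional coregulator, was within the range at 1329 CPM, the tagged IP's level being between the untagged 1055 and 2632 CPM, and Gse1 and Rai1 were within it too. Gnrh1 and Prr12 thus reached almost the same ratio in the tagged pair, 5.69 and 5.76, but only Gnrh1 did so without a like ratio in the untagged pairs. Exchanging the supernatants of the tagged pool and untagged adult pool 1 put Prr12 within the range.

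The largest margin among the named genes belonged not to Gnrh1 but to a much less abundant transcript, Tstd1, which encodes a small sulfurtransferase. The tagged IP held 21.4 CPM, from 1039 counts. Untagged adult pool 2 held 0.0506 CPM and the other 4 untagged IP libraries held no count. All 6 supernatants were low, 0.749 CPM in the tagged pool and 0.281 to 0.424 CPM in the untagged pools. The tagged IP therefore stood alone, at least 265-fold higher than the limit of 3 counts in the untagged IP libraries. Its CPM was 28.6-fold higher in the IP than in the supernatant, with an interval of 18.4 to 47.0. The log2 ratio of 4.75, which holds the prior count, lay 6.83 above the highest untagged ratio, and 6.74 with counts under 3 set to 3. Tstd1 reached a mean of at least 1 CPM only through the tagged IP, so the filter itself favoured this pattern. Tstd1 (chr1:171418872-171420352, plus strand, GRCm38) shares exon sequence with Usf1, a transcription factor gene on the same strand, so reads in the overlap cannot be assigned with certainty. Usf1 held 95.0 CPM in the tagged IP and 47.9 to 73.4 CPM in the untagged ones, a margin of 0.36.

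Epcam and Marveld2, both known from epithelia, were among the 15 with the largest margin. Epcam (chr17:87635979-87651129, plus strand), which encodes the epithelial cell adhesion molecule, held 17.2 CPM in the tagged IP. The untagged IP libraries held 0 and 1.92 CPM in the adult pools and 0.189, 2.68 and 1.36 CPM in the young pools, all well under the tagged level. Its supernatant level was at most 0.636 CPM in any pool, the tagged included, and its margin was 2.56. Marveld2, which encodes the tight-junction protein tricellulin, had a margin of 2.74 that rested on its supernatant. The tagged supernatant held 1 count, the ratio of 151-fold had an interval of 26.9 to 6000, and the tagged IP at 5.67 CPM lay under 2 untagged young IP libraries at 6.73 and 8.66 CPM.

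Prph and Brs3 were also among the 15. Prph (chr15:99055174-99058978, plus strand) encodes peripherin, an intermediate filament of peripheral and some central neurons. It held 12.8 CPM in the tagged IP against 1.91 and 3.29 CPM in the untagged adult IP libraries and 1.72, 0 and 1.26 CPM in the young ones, with all supernatants between 1.21 and 2.84 CPM. The tagged IP was the only library over 3.29 CPM, the enrichment was 4.48-fold with an interval of 3.53 to 5.77, and the margin was 1.90. Brs3, an orphan receptor of the bombesin family on chromosome X, held 13.5 CPM in the tagged IP against 3.04 and 3.21 CPM in the adult and 5.66, 2.00 and 3.01 CPM in the young untagged IP libraries, and its margin was 1.82. Prph and Brs3 kept margins of at least 1.83 and 1.63 under every alternative tried for them, but both were picked by margin in these same data.

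The other named genes above the range were less abundant or less uniform. Rassf6, a Ras-association protein gene, Malt1, the paracaspase of NF-kB signalling, Vill, a villin-like actin-binding protein gene, and Rd3, a regulator of photoreceptor guanylate cyclase, had margins of 3.57, 3.06, 3.06 and 2.76 at 5.17 to 10.6 CPM in the tagged IP. Gpr98, an adhesion receptor gene, Gchfr, the feedback regulator of GTP cyclohydrolase, and Ppp1r3b, a glycogen-targeting phosphatase subunit, had margins of 2.11, 1.74 and 1.70. Gpr98 lost its place when the supernatants of the tagged pool and untagged adult pool 1 were exchanged. Slc22a6, an organic anion transporter found in the meninges, held 34.0 CPM in the tagged IP against 0 to 16.8 CPM in the untagged IP libraries. Of the 15 genes named by this rule, 14 were higher in the tagged IP than in all untagged IP libraries, 11 had at least 1 untagged IP library at 3 counts or fewer, and 9 reached 10 CPM in the tagged IP. Malt1, Marveld2 and Gpr98 also had a lower supernatant level in the tagged pool than in every untagged pool.

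By level and not by ratio, the transcripts whose pattern was most like that of Gnrh1 over the 12 libraries included Tstd1, Epcam, Arg1 and 1700012A16Rik. The measure was the log2 distance of the tagged IP from the highest of the other 11 libraries, supernatants included, which was 5.48 for Gnrh1, 4.75 for Tstd1, 2.66 for Epcam, 2.53 for Arg1 and 2.37 for 1700012A16Rik. Arg1, which encodes arginase, held 11.5 CPM in the tagged IP, 1.95 CPM in untagged young pool 3 and at most 0.0757 CPM in the other untagged IP libraries. For Prph the distance was 1.94. Tstd1, Epcam, Arg1 and 1700012A16Rik reached a mean of at least 1 CPM only through the tagged IP. Their lone high level there is therefore partly built into the selection.

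The genes farthest below the range were transcripts detected in every supernatant that were nearly missing from the tagged IP. Egln3, a prolyl hydroxylase of the hypoxia response, had no count in the tagged IP and 2.71 to 6.34 CPM in the 5 untagged IP libraries, with 6.66 CPM in the tagged supernatant. It was at least 43.8-fold lower in the tagged IP, at the limit of 3 counts, than in the lowest untagged one. Impa2, an inositol monophosphatase gene, also had no count, against 3.30 to 6.30 CPM. Cdkl3, a cyclin-dependent-kinase-like gene, was the most abundant of the 10 named in the supernatants. Its tagged IP held 1.65 CPM, from 80 counts, against 26.0, 17.3, 20.03, 24.2 and 24.7 CPM in the untagged IP libraries, while its supernatants were at 22.9 to 27.6 CPM in all 6 pools. The untagged Cdkl3 ratios were close together, from -0.44 to -0.01, and the tagged ratio was -3.81.

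Olfml3, Fam126a, Alas2, Syde1, Mcf2 and Zfp408 also belonged to this group, with margins between -5.38 and -3.28. Of the 10 genes, 9 were under 1 CPM in the tagged IP and 4 were at 3 counts or fewer. For 7 of them the tagged supernatant lay inside the range of the untagged supernatants. All 10 stayed below the range under every alternative in which they were measured. They were picked for their margin, so that outcome was largely fixed in advance. The untagged IP libraries also lacked single transcripts: of the genes with at least 5 CPM in the supernatant, 9 had 3 counts or fewer in the tagged IP, against 48 and 7 in the untagged adult IP libraries and 21, 31 and 25 in the young ones.

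**Figure D3:**
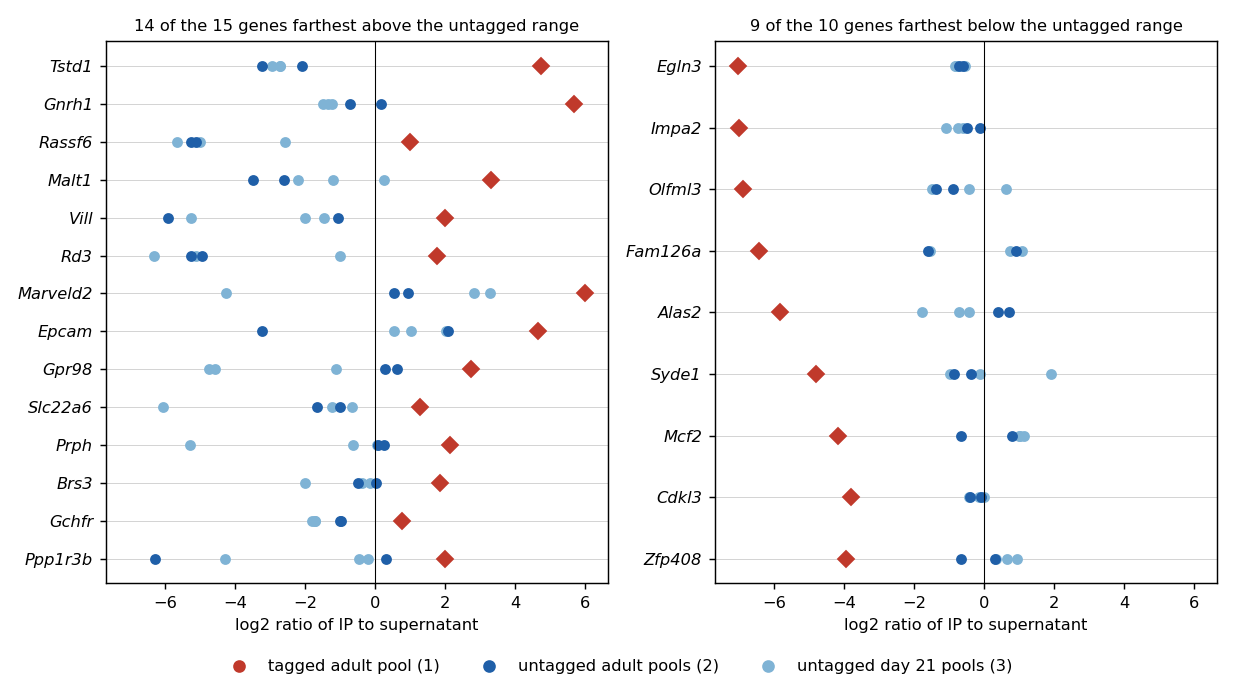
Log2 ratio of IP to supernatant for 14 of the 15 genes farthest above (left) and 9 of the 10 farthest below (right) the untagged range; the diamond is the tagged pair and the circles are the 5 untagged pairs. The genes were ordered by this distance, so the separation is a description. The untagged circles are close together for Egln3 and Cdkl3, run from -1.49 to 0.17 for Gnrh1, and spread over several log2 units for Marveld2 and Ppp1r3b.

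General neuronal genes stood slightly higher in the tagged pair. Of 14 measured pan-neuronal genes, 7 were above the untagged range, 50% against 28.8% of all genes with a mean of at least 50 CPM, a level that all 14 reached; 1, Nefh, was below. Their median ratio was 0.32 in the tagged pair and between -0.09 and 0.21 in the untagged pairs. Stmn2, a microtubule regulator of growing axons, held 666 CPM in the tagged IP against 412 to 594 CPM, with a margin of 0.53. Snap25, a synaptic fusion protein gene, held 2907 CPM against 1576 to 2092 CPM, with a margin of 0.39. Uchl1 and Tubb3, a neuronal ubiquitin hydrolase and tubulin, had margins of 0.31 and 0.29. The count above the range was also 7 with total counts and after centring. None of the neuronal margins approached that of Gnrh1.

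Genes of the secretory route of neuropeptides were mostly within the range. Of 24 measured genes of dense-core granules and prohormone processing, 7 were above and 3 below, and of 44 genes of endoplasmic reticulum (ER) translocation and folding, 12 were above and 1 was below. The shares above were 29.2% and 27.3% and those below 12.5% and 2.27%, against 19.8% and 15.5% of all measured genes. At a mean of at least 50 CPM, 29.4% and 42.3% were above, against 28.8% of all such genes. Pcsk1, the prohormone convertase, held 17.8 CPM in the tagged IP against 0.976 to 10.9 CPM, with a margin of 0.34. Rab27b and Rab3a, vesicle-docking GTPase genes, had margins of 0.44 and 0.30, and Ptprn, a granule membrane protein gene, was below by 0.36. The subunits of the signal recognition particle Srp68 and Srp72 had margins of 0.67 and 0.51, with 193 and 160 CPM in the tagged IP against at most 118 and 101 CPM in the untagged ones. The median ER difference of 0.08 equalled that of all measured genes and was -0.03 with total counts.

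Among 25 other measured neuropeptide genes, 8 were above and 2 below, 32% and 8% against 19.8% and 15.5% of all measured genes, with a median difference of 0.16. At a mean of at least 50 CPM the share above was 28.6%, against 28.8% of all such genes. Grp, gastrin-releasing peptide, Pnoc, the nociceptin precursor, and Avp, vasopressin, were above by 0.57, 0.27 and 0.22, at 3.34, 32.6 and 119 CPM in the tagged IP. Avp in untagged adult pool 2 was higher in both fractions, at 162 and 236 CPM, so its place above the range came from the ratio and not from the IP level. Ghrh, growth hormone-releasing hormone, was below by 0.73 at 0.309 CPM. Of transmitter identity genes, 1 of 7 for GABA and glutamate (Gad2, margin 0.07) and 1 of 8 for amines (Th, margin 0.13) were above and 0 were below. The shares above, 14.3% and 12.5%, were under the 19.8% of all measured genes. Th was also the highest of the 6 pools in the tagged supernatant, at 98.7 CPM against 37.2 to 69.4 CPM. Of 8 genes of immature neurons, Stmn1 and Tubb2b were above by 0.31 and 0.32, a share of 25%.

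Of 24 measured transcription factors with described action at the Gnrh1 promoter, 3 were above and 3 below. Each share, 12.5%, was under that of all measured genes, 19.8% above and 15.5% below. Six6, a homeobox factor of hypothalamic and GnRH neuron development, held 20.4 CPM in the tagged IP. The untagged adult pools were at 19.8 and 6.83 CPM and the young pools at 2.71, 5.26 and 0 CPM, so the IP level of untagged adult pool 1 nearly matched the tagged one, and the margin of the ratio was 0.89. Six3 and Meis1 were above by 0.11 and 0.01. Lhx2, a LIM-homeobox factor of forebrain development, had a margin of -1.40, at 7.62 CPM in the tagged IP against 18.0 to 32.8 CPM.

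Among 39 measured genes whose mutation is linked to GnRH deficiency in people, 10 were above and 10 below, 25.6% each. Of all measured genes 19.8% were above and 15.5% below. Gnrh1 itself is not in this list. Il17rd, a modulator of fibroblast growth factor signalling, and Axl, a receptor tyrosine kinase gene, were above by 0.55 and 0.52. Il17rd had a mean of 1.05 CPM over the 12 libraries, with 4.10 CPM in the tagged IP and 12 counts in the tagged supernatant. Without the tagged IP it would not have been measured, so its place among those above is partly built into the selection. Prokr2 and its ligand gene Prok2 were both below, by 3.71 and 1.04. Lepr, the leptin receptor, was below by 1.37, with 0.453 CPM in the tagged IP against 1.135 to 4.96 CPM.

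Receptors described on GnRH neurons and potassium, pacemaker, calcium and sodium channel genes had more members below than above the range. Of 25 measured receptors, 8 were below and 1, Erbb4 with a margin of 0.05, was above. These shares, 32% below and 4% above, stand beside 15.5% and 19.8% of all measured genes. Kiss1r and Prokr2, given with the markers, are not in this list. Cnr1, the cannabinoid receptor, held 62.5 CPM in the tagged IP against 92.3 to 124 CPM, below by 0.56. Htr2c, a serotonin receptor, and Fgfr1, a fibroblast growth factor receptor, were below by 0.41 and 0.37. Of 30 potassium channel genes, 11 were below, 36.7%, and 1 was above. Kcnd3, an A-type channel gene, held 20.4 CPM in the tagged IP against 36.3 to 61.6 CPM, below by 0.72, whereas Kcnj3, a subunit of G protein-gated channels, was above by 0.69 at 8.73 CPM. Of 25 pacemaker, calcium and sodium channel genes, 7 were below, 28%, and 0 were above, with Hcn4 and Hcn2, pacemaker channel genes, below by 0.42 and 0.33. GABA-A receptor subunits gave 1 above and 2 below of 14, and ionotropic glutamate receptor subunits 1 above and 1 below of 15. These shares, 7.14% and 14.3% and then 6.67% each, were under those of all measured genes. More potassium, pacemaker, calcium and sodium channel genes were below than above under all scalings. Against the adult untagged pairs alone, where 35.3% of all genes were above and 32.0% below, 8 potassium channels were above and 14 below, 8 of the pacemaker, calcium and sodium channels above and 12 below, and 9 receptors above and 11 below.

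**Figure D4:**
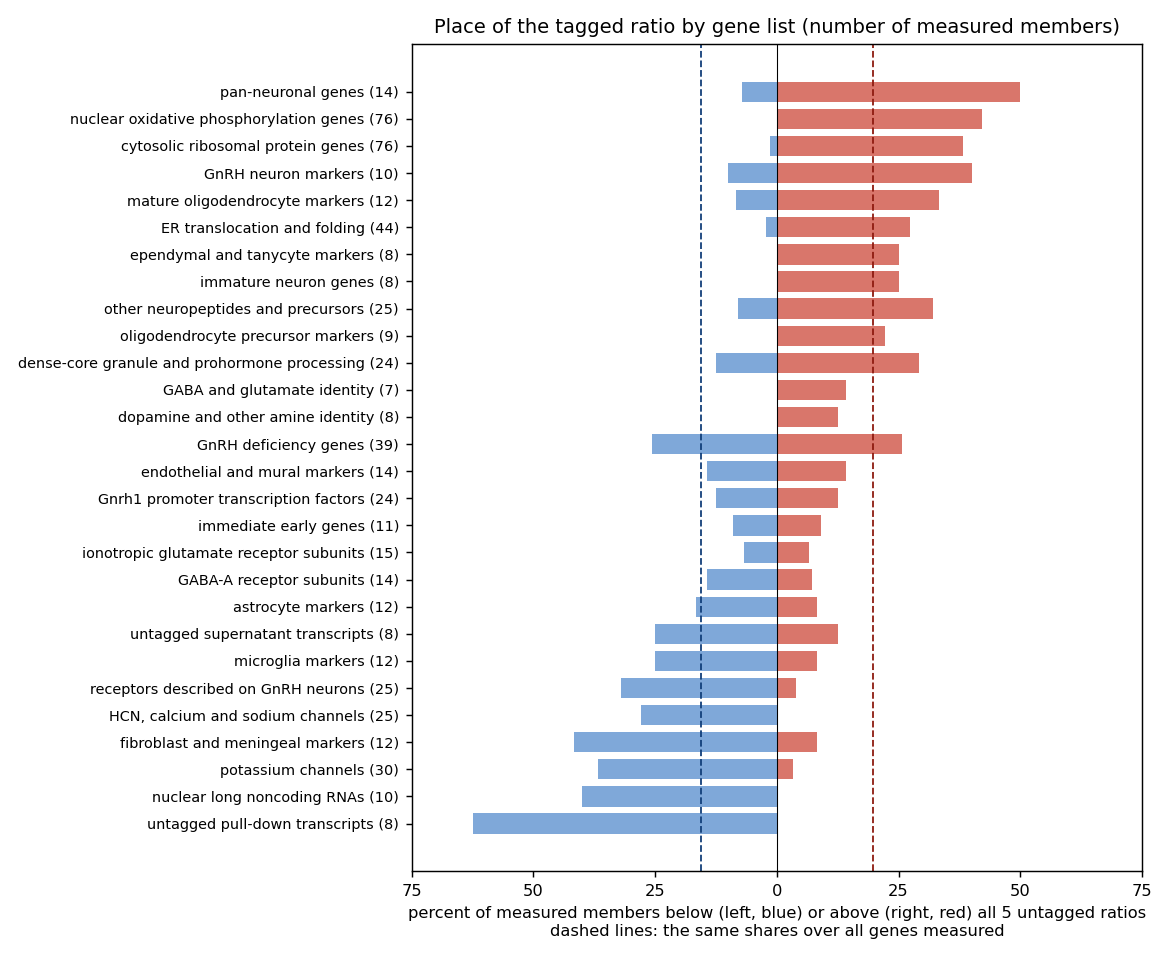
Percent of the measured members of each gene list whose tagged ratio was above (right) or below (left) all 5 untagged ratios, for lists with at least 7 measured members; dashed lines give the shares over all measured genes, 19.8% and 15.5%. Pan-neuronal genes reach 50% above, and the untagged pull-down transcripts and nuclear RNAs lie on the left.

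Genes of translation and respiration were higher relative to the young untagged pairs than to the adult ones. Of 76 measured cytosolic ribosomal protein genes, 29 were above and 1 was below, and of 76 nuclear genes of oxidative phosphorylation, 32 were above and 0 were below. The shares at a mean of at least 50 CPM were 41.8% and 42.7%, against 28.8% of all such genes. Their median ratios in the tagged pair, -0.77 and -0.75, were nevertheless inside the ranges of the untagged pair medians, -1.44 to -0.67 and -1.51 to -0.67. Against the untagged adult pairs alone, the median differences shrank from 0.33 to 0.05 and from 0.32 to 0.07, with 30 ribosomal protein genes above and 18 below, and 33 oxidative phosphorylation genes above and 21 below. In that comparison 35.3% of all genes were above and 32.0% below. Rpl6 held 340 CPM in the tagged IP against 184 to 246 CPM, and Atp5b, an ATP synthase subunit gene, 3386 CPM against 1754 to 2506 CPM. Ribosomal protein genes have near-identical copies in the genome, so their counts are uncertain.

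These are short transcripts, with median lengths of 941.5 and 926 nucleotides against 3170 over all measured genes. The tagged ratio rose with length as the untagged ratios did, but less than their mean. In genes with a mean of at least 20 CPM, split into 5 classes of length, the median tagged ratio climbed from -0.49 in the shortest class to 0.53 in the longest. The untagged pair medians lay between -0.80 and -0.49 in the shortest and between 0.53 and 0.66 in the longest class. The median of the tagged ratio less the untagged mean fell from 0.16 in the shortest class to -0.05 in the longest. In the shortest class 32% of genes were above the range and 11.3% below, and in the longest 13.5% were above and 21.4% below. Potassium channels, with a median length of 5183.5 nucleotides, and the pacemaker, calcium and sodium channels, with 8230, fall among the long transcripts; the part of length in the list results was not tested.

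**Figure D5:**
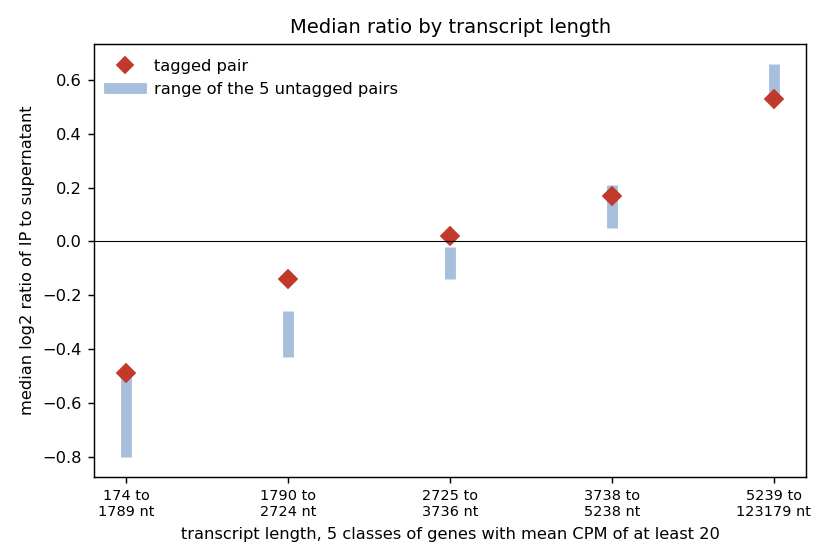
Median log2 ratio of IP to supernatant in 5 classes of transcript length with nearly equal numbers of genes, for genes with a mean of at least 20 CPM; the diamond is the tagged pair and the bar spans the medians of the 5 untagged pairs. The tagged median goes from -0.49 to 0.53 and lies over the bar at 1790 to 2724 and at 2725 to 3736 nucleotides.

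Nuclear long noncoding RNAs had more members below than above the untagged range. Of the 10 listed, 4 were below, 40%, and 0 above, against 15.5% and 19.8% of all measured genes. Their median ratio in the tagged pair, 0.31, equalled the lowest of the untagged pair medians, 0.31 to 0.64. The median length was 8626 nucleotides, and the part of length was not tested here either. Malat1 held 676 CPM in the tagged IP against 1387 to 1848 CPM in the untagged ones, but the tagged supernatant, at 3562 CPM, was also under the untagged 4654 to 8143 CPM, and the ratio was below by 0.05. Peg13 held 337 CPM in the tagged IP against 410 to 675 CPM, below by 0.47. The 8 transcripts picked for their high supernatant share in untagged pools gave 1 above (Raly, margin 0.85) and 2 below in the tagged pair, 12.5% and 25%. Of 11 immediate early genes, Junb was above by 0.03 and Btg2 below by 0.28, 9.09% each.

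Markers of other cells of the preoptic area differed between pools in both fractions. The list shares that follow stand beside 19.8% above and 15.5% below over all measured genes. Mature oligodendrocyte markers summed to 2717 CPM in the tagged IP and 2968 to 7841 CPM in the untagged IP libraries, and to 3023 CPM in the tagged supernatant against 3633 to 7381 CPM, so the tagged pool was lowest in both. Of the 12 measured, 4 were above and 1 was below as ratios, 33.3% and 8.33%, with Cldn11 and Ermn above by 0.74 and 0.59. With no replicate block 0 were above and 5 below, and with exchanged supernatants 1 was above and 3 were below. In bulk tissue, fewer cells of a type and less RNA per cell cannot be told apart. Oligodendrocyte precursor markers, 2 of 9 above, 22.2%, and 0 below, summed to 325 CPM in the tagged IP against 335 to 695 CPM. Under both of those alternatives 0 of these precursor markers were above and 2 below. Astrocyte markers, 1 of 12 above and 2 below, 8.33% and 16.7%, summed to 1713 CPM, inside the untagged 1168 to 2135 CPM. Microglia markers, 1 of 12 above and 3 below, 8.33% and 25%, summed to 123.2 CPM, inside the untagged 89.9 to 167 CPM.

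Vascular and meningeal genes had members on both sides of the untagged range. Endothelial and mural markers summed to 122.5 CPM in the tagged IP, inside the untagged 85.9 to 307 CPM, with 2 of 14 above and 2 below. Each share, 14.3%, was under that of all measured genes, 19.8% above and 15.5% below. Esam, an endothelial adhesion molecule, had no count in the tagged IP against 2.19 to 9.04 CPM, and Cldn5, the tight-junction claudin of brain endothelium, had 2 counts against 0.888 to 16.6 CPM. Both were also lower in the tagged supernatant than in all or all but 1 of the untagged supernatants, at 2.81 and 2.13 CPM. Fibroblast and meningeal markers summed to 1213 CPM, inside the untagged 283 to 3611 CPM. Of the 12, 5 were below, 41.7%, the collagens Col1a1, Col1a2 and Col3a1 among them, and 1, Slc22a6, was above, 8.33%. Of the ependymal and tanycyte markers 2 of 8 were above, 25%, and 0 below, and of the 4 choroid plexus and pituitary markers measured none was outside the range. Alas2, the heme synthesis enzyme of red cells, was the only blood marker measured and had 4 counts in the tagged IP against 2.86 to 13.1 CPM. The part of these cell types in the genes named above was not tested.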

How the data were processed

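The deposited values were raw whole-number counts for each gene symbol. The submitters' processing notes list HTSeq 0.6.1, TopHat2 2.0.13, FastQC 0.11.3, Bowtie2 2.2.1, DESeq2 1.14.1, Cufflinks and Cuffdiff 2.1.1, and build mm10. Which tool made the table, the annotation, the strand setting and the treatment of duplicates are not given in the sources used here. The labels' protocols give SMARTer v4 ultra-low-input libraries from polyA RNA. Overlapping or antisense genes and genes with near-identical copies are therefore uncertain, and intervals and the limit of 3 counts cover counting error only.

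From these counts, log2 CPM with a prior count of 2 and TMM scaling over the 12 libraries were computed with edgeR 4.0.16 in R 4.3.3, and each IP was set against the supernatant of its own pool. Genes with a mean of at least 1 CPM were kept. Fold intervals came from the exact binomial distribution of the counts of both fractions. The placing step was checked on simulated data, with changes given only to genes with a mean of at least 20 CPM. All simulated libraries of a fraction were drawn around the same levels at 1 fixed dispersion, without differences between pools, ages or genotypes. Such data do not show how reliable the place of a less abundant gene is. Nor do they show how differences between pools affect the place of an abundant one. Gene positions, lengths and exon overlaps came from GENCODE vM21 (GRCm38) for 18960 symbols, 98.4%.

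Groups followed the sample titles. The series text names the tagged supernatant in 2 ways, once as the library titled adult negative 1, so an exchange of the 2 libraries was tried. The titles number the adult untagged supernatants 1 and 2 and their descriptions 2 and 3; the titles were followed, so the pairing of these with their IP rests on the titles. Per the labels, a pool gave both an IP and a supernatant. In the young untagged pools, deviations of IP and supernatant from the group means correlated at 0.24 to 0.50 within a pool, over 8174 genes. Between unlike young pools they correlated at -0.44 to 0.17. With only 2 adult untagged pools the deviations are mirror images, so 0.25 within and -0.25 between pools hold 1 value only. The tagged pool had no part in these correlations.

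Named were the marker genes, the 15 genes with the largest margin above (at least 5 CPM in the tagged IP), the 10 with the largest margin below (at least 5 CPM in the tagged supernatant), both without predicted symbols, up to 4 members per list by margin, the 8 untagged pull-down transcripts and the 5 genes most like Gnrh1. Other names were chosen after their values were seen. Some genes that the rule names are not reported here. The members and the 30 lists were chosen with earlier results of these data known. Alternatives were prior counts of 0.5 and 8, total counts, DESeq2 1.42.0 size factors, other filters, adult untagged pairs alone, leaving out each untagged pair, exchanged supernatants and no replicate block. Filters at 20 and 50 CPM, counts under 3 set to 3 and centred ratios were added after seeing the data.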

Additional observations from a re-analysis of the deposited data

Results flagged for a closer look

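Among 45 named genes, 6 had an untagged ratio far from the other 4, by a rule that flags about 1 in 20 groups by chance. Untagged young pool 2 supplied 3 of them: the ratio of Brs3 was -2.01 there and at least -0.48 in the other untagged pairs, that of Prph was -5.28 and at least -0.62, and that of Rassf6 was the highest untagged value, -2.56, with the others at -5.00 or lower. Untagged young pool 1 supplied the highest Rd3 ratio, -0.99 against at most -4.95, and the lowest Slc22a6 ratio, -6.06 against at least -1.66. Untagged adult pool 1 had the lowest Mcf2 ratio, -0.67 against at least 0.80. The tagged ratios of Rassf6 and Rd3 were above even these lone high values, and that of Mcf2 was below its lone low value.

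For 2 of these 45 genes every untagged adult pair had a ratio of one sign and every untagged young pair the other. The mean untagged ratio of Gpr98 was 0.46 in the adult and -3.47 in the young pairs, and that of Alas2 was 0.55 and -0.97. Six6, named from a gene list and not one of the 45, also had ratios above 0 in the adult pairs, 1.03 and 0.25, and below 0 in the young pairs, -1.63, -0.44 and -4.98. The difference between the ages was not tested, and genotype differed with age.

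Supernatants of earlier tagged pools, which entered no comparison above, held Gnrh1 as well. With scaling over all 20 libraries, the repeated libraries of earlier adult pools 3 and 4 were at 29.4 and 39.0 CPM, over the 28.1 CPM of the highest untagged adult supernatant. Those of earlier young pools 1 and 2 were at 15.4 and 13.4 CPM, under all untagged young supernatants, which ran from 17.6 to 28.6 CPM. The first libraries of the same pools held 44.0 and 47.6 CPM in the adult and 24.0 and 27 CPM in the young pools. Kiss1r in the repeated supernatant of earlier young pool 2 was at 7.65 CPM, over 7.04 CPM in the highest untagged young supernatant, whereas young pool 1, at 6.66 CPM, and the adult pools, at 7.97 and 5.44 CPM, lay inside the untagged ranges of their age, 5.87 to 7.04 and 4.29 to 8.86 CPM.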

How the results depend on the processing

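Gnrh1 stayed above the untagged range in all 18 alternatives, with a margin of 5.42 to 6.39; leaving out 1 untagged pair gave 5.52 to 6.39. Of the 45 genes followed, none went from one side of the untagged range to the other. Several list medians did change sign, among them that of the ER list from 0.08 to -0.03 with total counts, and those of mature and precursor oligodendrocyte markers from 0.08 and 0.15 to -0.46 and -0.22 with no replicate block. Of the 15 genes named above and the 10 below, 14 and 10 kept their place in every alternative in which they were measured. These genes were picked for the largest margins in the same data, so that outcome was largely fixed in advance. Of the markers and the untagged pull-down transcripts, which were not picked by margin, 4 of 11 and 4 of 8 kept their place. Genes above by a margin of 1 numbered 109, and 464 with no filter, 18 at a mean of at least 5 CPM, 2 at 20 and 1 at 50 CPM, 516 against the adult untagged pairs alone and 146 to 192 without 1 untagged pair: 167 and 192 without adult pools 1 and 2, and 146, 170 and 179 without young pools 1, 2 and 3. Genes below by 1 numbered 269, and 439 with no filter, 135, 21 and 1 at 5, 20 and 50 CPM, 735 against adult pairs alone and 332 to 366 without 1 pair. Genes above in all numbered 2818, and 5040 against adult pairs alone and 1357 at 50 CPM; genes below numbered 2216, and 4568, 1293 at 20 CPM and 720 at 50 CPM. Fewer pairs make a narrower range and higher filters test fewer genes. The mean correlation of tagged with untagged ratios, 0.32, was 0.29 and 0.38 with prior counts of 0.5 and 8, 0.27 with no filter, 0.53, 0.74 and 0.82 at 5, 20 and 50 CPM and 0.30 with exchanged supernatants. With no replicate block, so that each IP was set against the mean supernatant of its age and not its paired one, it was 0.31, the Gnrh1 margin was 5.48, and 75 genes were above and 264 below by 1. The causes of the other shifts were not tested.

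A single tagged pair, 5 untagged pairs of mixed age and genotype, and amplified low-input RNA limit what can be read from these data. In the IP libraries, transcripts of a few CPM varied between untagged pools by several log2 units, so margins at that level have no replicate check. The counting intervals hold no variation between animals.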

Other observations

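Actb, the cytoplasmic beta-actin gene, was among the abundant transcripts above the untagged range, belonged to no list and was picked after its values were seen. The tagged IP held 2470 CPM, against 1176 and 1298 CPM in the untagged adult IP libraries and 1364, 1219 and 1712 CPM in the young ones. The tagged supernatant, at 1402 CPM, lay inside the untagged 1352 to 1901 CPM. Its tagged ratio was 0.82 and the untagged ratios lay between -0.42 and -0.15, a margin of 0.97. Actb has near-identical copies in the genome, so its counts are uncertain. Sst, the somatostatin gene and a member of the neuropeptide list, was also picked after its values were seen. It was within the range at 94.1 CPM in the tagged IP, with a ratio of -0.68 against untagged ratios of -1.16 to -0.46.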
